A study of Rattus norvegicus with 63 samples.

Results

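Cefuroxime (CFX) and nifedipine (Nif) are the non-carcinogens among the compounds of this series, and their liver protein profiles were compared with those of vehicle controls. The animals were chosen by label as 3 rats given CFX, 3 given Nif and the 3 methylcellulose controls (MCpo) of control set 2, to which the labels assign both compounds. These are 9 of the 63 animals, each measured for all 158 analytes. The series asked whether short exposure of rats to 15 compounds leaves liver protein patterns that separate carcinogens from non-carcinogens, with 18 vehicle animals as controls. All 9 animals were male Wistar Hanover rats of 8 to 10 weeks, dosed by gavage for 14 days. CFX was given at 250 mg/kg/day, Nif at 3 mg/kg/day, and MCpo rats received the vehicle alone. Per the methods of the study, dose groups held 5 rats, and the 3 treated animals measured per compound were picked for having some histopathological liver change. The 9 other MCpo animals, in control sets 1, 5 and 6, were used as a check. For comparison, 3 carcinogen groups of the same strain, sex and age were used. Phenobarbital sodium (PB) was given for 14 days, at a dose that the labels leave blank but the methods of the study state. Dehydroepiandrosterone (DHEA) was given at 600 mg/kg/day for 14 days, and piperonyl butoxide (PBO) at 1200 mg/kg/day for 3 days. The labelled controls of PB, DHEA and PBO are MCpo sets 6, 1 and 5, each dosed with vehicle for 14 days.

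Cefuroxime is a cephalosporin antibiotic that blocks bacterial cell wall synthesis, and nifedipine is a blocker of L-type calcium channels. Many compounds that promote liver tumours in rodents activate the nuclear receptors CAR, PXR or AhR in hepatocytes, which raises cytochrome P450 enzymes of the CYP2B, CYP3A and CYP1A families. Growth signals in hepatocytes run through kinase cascades, among them the ERK cascade and the AKT, MTOR and ribosomal S6 pathway, whose activity is read from phosphorylated forms of their members.

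Levels were read on reverse-phase protein arrays, on which lysates are spotted and probed with one antibody per array field. They are given as relative fluorescence intensity (RFI), a background-subtracted signal normalised over the array, which can be compared between animals but not between antibodies. Analytes are named after human genes, "_P" marks a phosphorylated form with its residues, and a final number separates antibodies against one protein. Differences are log2 ratios of group means with a 95% confidence interval, and an analyte was called when limma's adjusted p fell below 0.05. Of the hepatocyte markers, HNF4A, the transcription factor that maintains hepatocyte identity, lay between 1.90 and 2.65 in the 9 livers. No antibody was directed against a marker of other liver cells, so a change in the share of a cell type and a change in the level per cell cannot be told apart in these lysates. GLUL, a marker of hepatocytes around the central vein, had no usable value in MCpo animal 10, and ACTB had none in MCpo animal 11. These were 2 of the 1422 values of the 9 animals.

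The identity of the control set was uncertain. A deposited table of log2 ratios holds columns for the same animals. Its columns labelled set 2 correlated with the RFI of the set 6 animals (Spearman's rho 0.826 to 0.880 over the 158 analytes, which are not independent) and not with the RFI of set 2 (-0.154 to 0.0925). The CFX and Nif columns correlated with the RFI of their own animals at 0.671 to 0.783 and 0.774 to 0.808. Log2 ratios of the CFX and Nif animals were also computed from RFI over each MCpo set and compared with the deposited ones. Over set 6 they correlated at 0.421 to 0.791 for CFX and 0.598 to 0.640 for Nif. Over set 2 they reached at most 0.396 and 0.424, and over set 1 at most 0.487 and 0.514. The deposited ratios were thus closer to set 6 than to set 2. Which labelling of the animals is right was still not settled, and the counts and list summaries from set 2 are therefore also given against set 6. The first animal of set 6 stood apart with a median RFI of 0.882, against 0.504 to 0.641 in the other 11 MCpo, and counts and list summaries against set 6 are also given without it.

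Neither compound produced a called analyte. CFX against set 2 gave 0 of 158 calls (0%) with a smallest adjusted p of 0.998, and 3 analytes had an unadjusted p below 0.05 (1.90% of those tested). Nif gave 0 calls with a smallest adjusted p of 0.941 and 4 analytes below 0.05 (2.53%). The 6 treated animals pooled gave 0 calls with a smallest adjusted p of 0.854 and 4 such analytes (2.53%). The 95% interval of the pooled difference lay within a 2-fold change in either direction for 146 of the 158 analytes, with a median reach of 1.30-fold on each side of the estimate. For CFX alone the interval lay within that range for 137 analytes and for Nif alone for 136.

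The same count of 0 was obtained against the other controls. Against all 12 MCpo, 2 analytes had an unadjusted p below 0.05 for CFX (1.27%), 5 for Nif (3.16%) and 1 for the pool (0.633%). Against set 6 these numbers were 13 for CFX (8.23%), 2 for Nif (1.27%) and 6 for the pool (3.80%). The smallest adjusted p values against set 6 were 0.0778 for CFX and 0.0941 for the pool. Without the first set 6 animal the numbers against set 6 became 3 for CFX, 7 for Nif and 5 for the pool, with smallest adjusted p values of 0.176, 0.650 and 0.473 and 0 calls. Against the 11 remaining MCpo they were 1, 7 and 3, again with 0 calls.

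The root mean square of the 158 log2 differences from the labelled control set was 0.234 for CFX and 0.260 for Nif, the lowest 2 of the 15 compounds. The carcinogens acetamide, methapyrilene and methylcarbamate came next at 0.265, 0.318 and 0.324. Each of them also gave 0 called analytes against its labelled set, so a count of 0 was not particular to the non-carcinogens. The median compound reached 0.454 and PBO the highest value of 0.678. Pairs of MCpo control sets differed from each other by 0.161 to 0.366, a range that holds both values. The upper part of that range came from set 6, whose pairs gave 0.301, 0.358 and 0.366. Pairs without set 6 gave 0.161, 0.168 and 0.192, all below CFX and Nif. Against set 6 the values were 0.337 for CFX and 0.240 for Nif, and without its first animal 0.266 and 0.346. CFX and Nif share their control animals, so their values are not independent, and no test was made on these sizes.

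**Figure D1:**
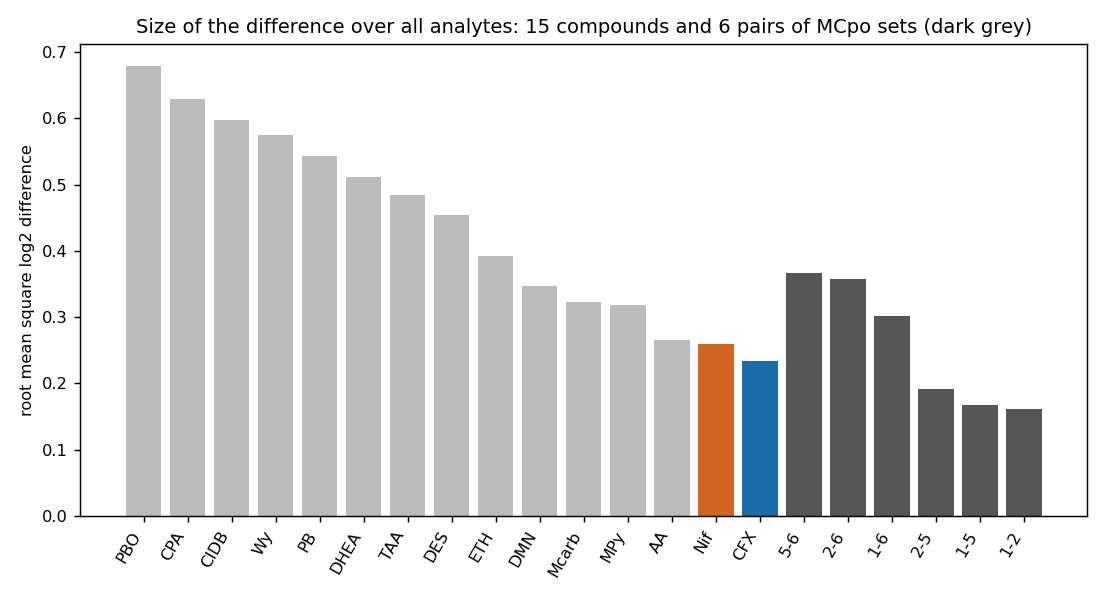
Root mean square of the log2 differences over 158 analytes for each of the 15 compounds against its labelled control set and for the 6 pairs of MCpo control sets (bars). CFX at 0.234 and Nif at 0.260 are the lowest compounds and lie within the 0.161 to 0.366 spanned by pairs of controls. Pairs without set 6 reach at most 0.192, below both compounds.

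The drug-metabolising enzymes showed no called difference. The list holds 14 antibodies, against P450 enzymes and against POR, the reductase that supplies them with electrons. In the pooled comparison 9 were higher and 5 lower with 0 at an unadjusted p below 0.05, and their median of 0.03 stood beside 0.04 for all analytes. The 14 values ran from -0.29 for CYP2B6_1 to 0.32 for CYP2E1_1, and the intervals of 12 lay within 2-fold. The split depended on the controls: it was 3 higher and 11 lower against all 12 MCpo (median -0.06) and 0 higher and 14 lower against set 6 (median -0.21, 2 at an unadjusted p below 0.05, 9 intervals within 2-fold). Without the first set 6 animal it was 7 and 7 (median -0.0042).

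CYP3A4_1, one of the antibodies against the P450 family that oxidises the largest number of drugs and that PXR induces, read 7.62, 6.10 and 6.89 in the CFX livers. It read 7.73, 5.96 and 8.37 with Nif and 6.94, 6.78 and 6.71 in set 2. The 3 groups overlapped, and the pooled difference was 0.05 (-0.38 to 0.48) against set 2 and -0.29 against set 6. The second CYP3A4 antibody, CYP3A4_2, gave 1.91, 0.578 and 0.725 with CFX, 1.34, 0.992 and 1.66 with Nif and 1.17, 1.60 and 1.10 in set 2. CFX animals 2 and 3 lay below all set 2 animals while CFX animal 1 lay above them. The pooled difference of CYP3A4_2 was -0.21 (-0.77 to 0.35).

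CYP2B6_1, an antibody against the family that CAR induces, was the only analyte whose 3 CFX values lay outside all 12 MCpo. It read 0.302, 0.299 and 0.306 with CFX, 0.399, 0.439 and 0.515 with Nif and 0.496, 0.457 and 0.404 in set 2, and the 12 MCpo spanned 0.362 to 0.560 with a median of 0.419. CFX was thus below every control while Nif lay among them. The difference of CFX from set 2 was -0.58 (-1.24 to 0.09, unadjusted p = 0.0906, adjusted p = 0.998), and from all 12 MCpo -0.49 (unadjusted p = 0.0673), so the test made no call. One analyte of 158 is 0.633%. No analyte had all Nif values, or all values of both compounds, outside the 12 MCpo (0% each). Without the first set 6 animal CYP2B6_1 remained the 1 analyte for CFX (0.633%), Nif had 3 (1.90%), among them ERBB2_P-Y877 and CCNE2, all above the controls, and both compounds together had 0 (0%). The other CYP2B6 antibodies did not separate the groups, with CFX differences of -0.07 for CYP2B6_2 and -0.37 for CYP2B6_3.

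CYP1A2_1, the AhR-inducible enzyme of hepatocytes, read 1.41, 0.840 and 1.24 with CFX, 1.23, 1.06 and 2.28 with Nif and 1.34, 1.29 and 0.997 in set 2. Only the third Nif animal lay above set 2 by a margin, but inside the 0.997 to 2.32 of the 12 MCpo. The pooled difference was 0.09 (-0.36 to 0.54) against set 2 and -0.38 against set 6. POR read 16.9, 12.4 and 14.1 with CFX, 15.4, 11.7 and 16.3 with Nif and 12.3, 17.5 and 13.5 in set 2, a pooled difference of 0.01 (-0.43 to 0.45), or -0.12 against set 6. CYP2C8 had a pooled difference of 0.08. CYP2E1_1 and CYP2E1_2, antibodies against the ethanol-inducible P450, were the 2 of the list whose pooled intervals reached past 2-fold, -0.99 to 1.62 and -0.55 to 1.13.

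**Figure D2:**
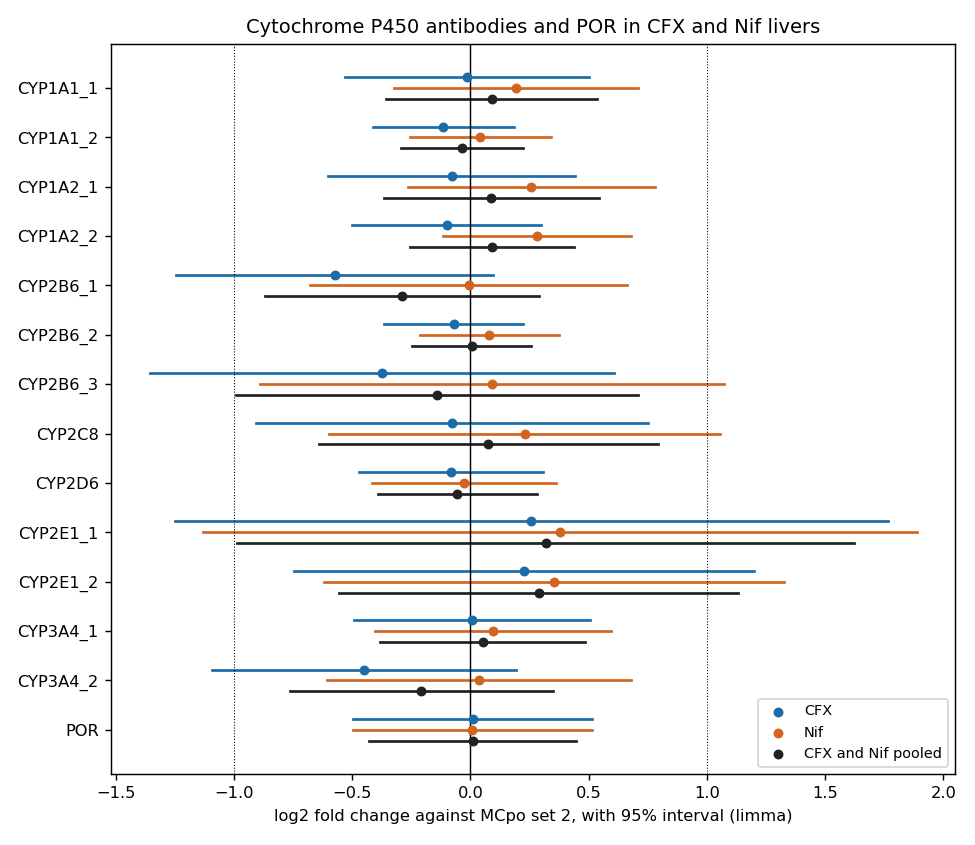
Log2 differences from MCpo set 2 with 95% confidence intervals for the 14 antibodies of the P450 and POR list, for CFX, Nif and both pooled. Dotted lines mark a 2-fold change, and the pooled estimates lie between -0.29 and 0.32 with every interval spanning 0.

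Among the 10 other liver enzymes and nuclear receptors, 9 were higher and 1 lower in the pooled comparison, with a median of 0.06 and 0 at an unadjusted p below 0.05. Against set 6 it was 1 higher and 9 lower (median -0.18), and 8 and 2 (median 0.05) without the first animal of that set. CYP4F2, a P450 that hydroxylates fatty acids and leukotrienes, was the highest of the 158 pooled differences. It read 0.557, 0.539 and 0.644 with CFX, 0.611, 0.582 and 1.68 with Nif and 0.463, 0.439 and 0.516 in set 2. All 6 treated values lay above the 3 of set 2, which held for 1 analyte in 158 (0.633%), but inside the 0.439 to 0.873 of the 12 MCpo except for the third Nif animal. The difference for Nif was 0.83 (0.13 to 1.54, unadjusted p = 0.0219, adjusted p = 0.941) and became 0.34 without that animal. For CFX alone 11 analytes lay outside the range of set 2, 2 above and 9 below (6.96%), and for Nif 11, 10 above and 1 below (6.96%). Random arrangement of 3 against 3 animals separates a single analyte fully at a rate of 0.1, which is above these shares.

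In the ERK cascade, 16 antibodies gave 11 higher and 5 lower values, a median of 0.07 and 1 unadjusted p below 0.05. Against set 6 the split was 2 and 14 (median -0.16), and without its first animal 10 and 6 (median 0.03). That analyte was MAPK3_P-T202/Y204, the active form of ERK1. It read 3.40, 2.99 and 5.26 with CFX, 3.07, 3.51 and 4.68 with Nif and 3.21, 1.87 and 2.73 in set 2. The groups overlapped through MCpo animal 10 at 3.21. The difference was 0.57 for CFX (0.08 to 1.05, unadjusted p = 0.0225), 0.54 for Nif (unadjusted p = 0.0300) and 0.55 for the pool (0.13 to 0.97, unadjusted p = 0.0108, adjusted p = 0.854).

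Total MAPK3 had a pooled difference of -0.09. The other controls gave smaller differences for MAPK3_P-T202/Y204, 0.27 against all 12 MCpo, 0.31 against set 1, 0.22 against set 5 and 0.0051 against set 6. Without MCpo animal 11, the lowest at 1.87, the pooled difference from set 2 was 0.33. MAP2K1, the kinase that phosphorylates ERK, read 43.1, 41.5 and 38.3 with CFX and 38.3, 50.2 and 46.7 with Nif, against 60.1, 46.7 and 50.0 in set 2. Its pooled difference of -0.28 (-0.92 to 0.37) was the lowest of the cascade.

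In the AKT, MTOR and ribosomal S6 list, 15 antibodies gave 11 higher and 4 lower values with a median of 0.06. Against set 6 the split was 4 and 11 (median -0.16), and without its first animal 11 and 4 (median 0.13). The 1 with an unadjusted p below 0.05 was RPS6_P-S235/S236, ribosomal protein S6 in the form that S6 kinase makes. It read 3.04, 5.84 and 2.74 with CFX, 1.88, 3.57 and 1.97 with Nif and 11.8, 8.00 and 4.76 in set 2. All 3 Nif values and 2 of 3 CFX values lay below the controls. The difference was -1.70 for Nif (-2.89 to -0.50, unadjusted p = 0.00649, adjusted p = 0.941), -1.07 for CFX and -1.38 for the pool (-2.42 to -0.35, unadjusted p = 0.0101, adjusted p = 0.854).

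The direction of RPS6_P-S235/S236 depended on the control set. It read 9.66, 6.69 and 4.52 in set 1, 12.7, 8.16 and 12.6 in set 5, and 3.66, 1.43 and 0.945 in set 6. The pooled difference was -1.18 against set 1, -1.90 against set 5 (adjusted p = 0.0964) and -0.92 against all 12 MCpo, but 0.79 against set 6. The controls among themselves spanned 0.945 to 12.7. RPS6KB1_P-T389, the activated S6 kinase itself, was the highest of the list at 0.42 (-0.24 to 1.09), opposite in sign to RPS6_P against set 2.

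STAT5A_P-Y694, the transcription factor STAT5A in the form made by JAK2 downstream of growth hormone, had 1 of the 3 low p values for CFX. It read 0.161, 0.179 and 0.175 with CFX, 0.172, 0.611 and 0.232 with Nif and 0.810, 0.505 and 0.190 in set 2. The CFX values lay just below MCpo animal 12 and far below the other two, and Nif overlapped the controls. The difference for CFX was -1.32 (-2.38 to -0.25, unadjusted p = 0.0162, adjusted p = 0.998), or -0.85 without MCpo animal 10, and the pooled difference of -0.94 became -0.45 against all 12 MCpo and -0.02 against set 6. Total STAT5A had a pooled difference of 0.11. The STAT, SOCS and NF-kappa-B list as a whole gave 8 higher and 5 lower values of 13 with a median of 0.03, from STAT5A_P to 0.21 for the active form of JAK2. It gave 2 and 11 (median -0.09) against set 6 and 12 and 1 (median 0.05) without the first animal of that set.

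PPP2CB_P-Y307, the catalytic subunit of protein phosphatase 2A in its inactivated form, read 0.951, 0.729 and 1.03 with CFX, 0.942, 1.35 and 1.03 with Nif and 2.14, 1.01 and 1.21 in set 2. The difference for CFX was -0.63 (-1.12 to -0.13, unadjusted p = 0.0137, adjusted p = 0.998), and -0.31 without MCpo animal 10, the highest of the controls. The pooled difference was -0.48 against set 2 (unadjusted p = 0.0281), -0.27 against all 12 MCpo and -0.21 against set 6. ERBB2_P-Y877, a phosphorylated receptor tyrosine kinase, read 0.133, 0.173 and 0.138 with Nif, 0.104, 0.102 and 0.111 with CFX and 0.120, 0.103 and 0.0943 in set 2. All Nif values lay above both other groups, and above 11 of the 12 MCpo, of which the first animal of set 6 read 0.164 and the next highest 0.131. The difference for Nif was 0.48 (0.06 to 0.91, unadjusted p = 0.0258, adjusted p = 0.941), and 0.45 against all 12 MCpo (unadjusted p = 0.00881, adjusted p = 0.950), 0.37 against set 6 and 0.63 against set 6 without its first animal. ERBB2_P and STAT5A_P were among the dim analytes that a filter on the lowest 0.25 of median RFI removed.

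**Figure D3:**
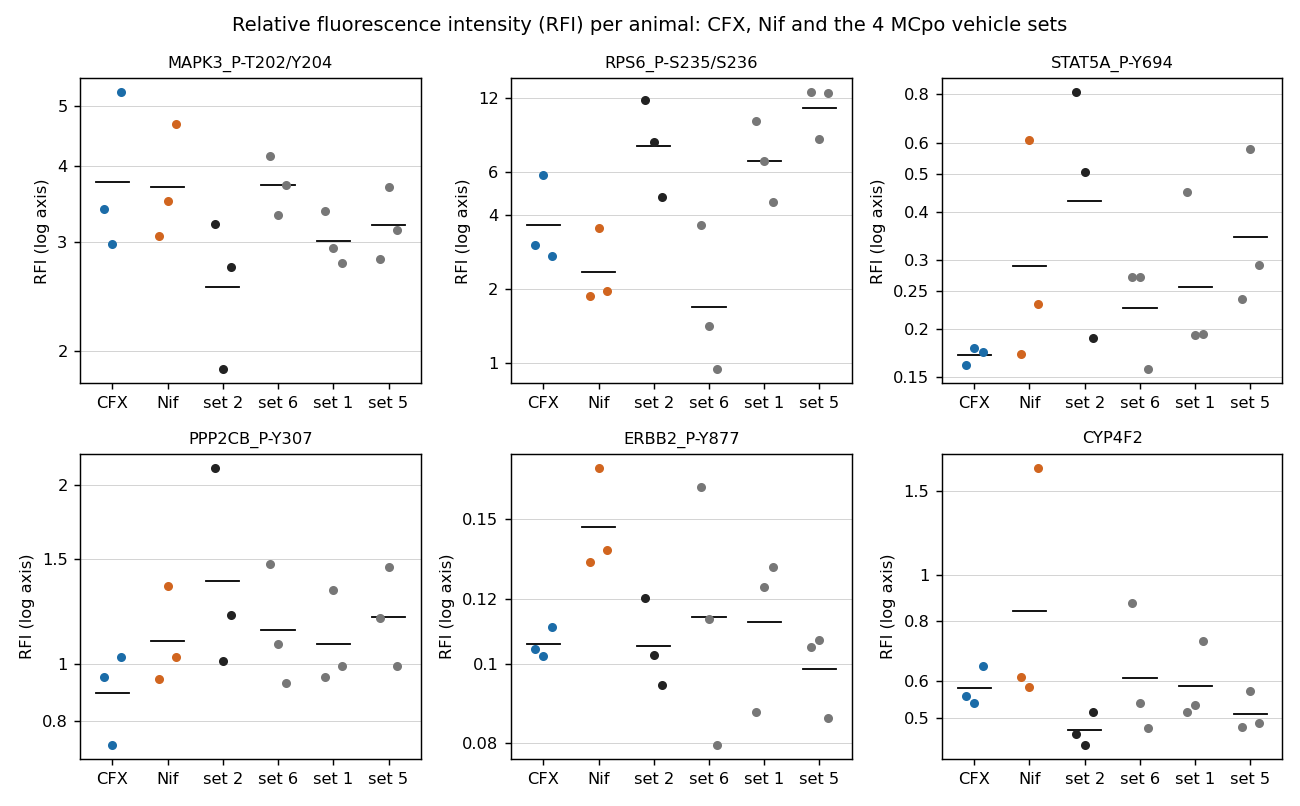
RFI of each animal for the 6 analytes with an unadjusted p below 0.05 against set 2, in CFX, Nif and MCpo sets 2, 6, 1 and 5 (points are animals, lines are geometric means). The means of RPS6_P-S235/S236 are lower in CFX and Nif than in sets 1, 2 and 5 but not lower than in set 6, where it read 0.945 to 3.66. The CFX animal at 5.84 overlaps sets 1 and 2, whose lowest animals read 4.52 and 4.76.

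**Figure D4:**
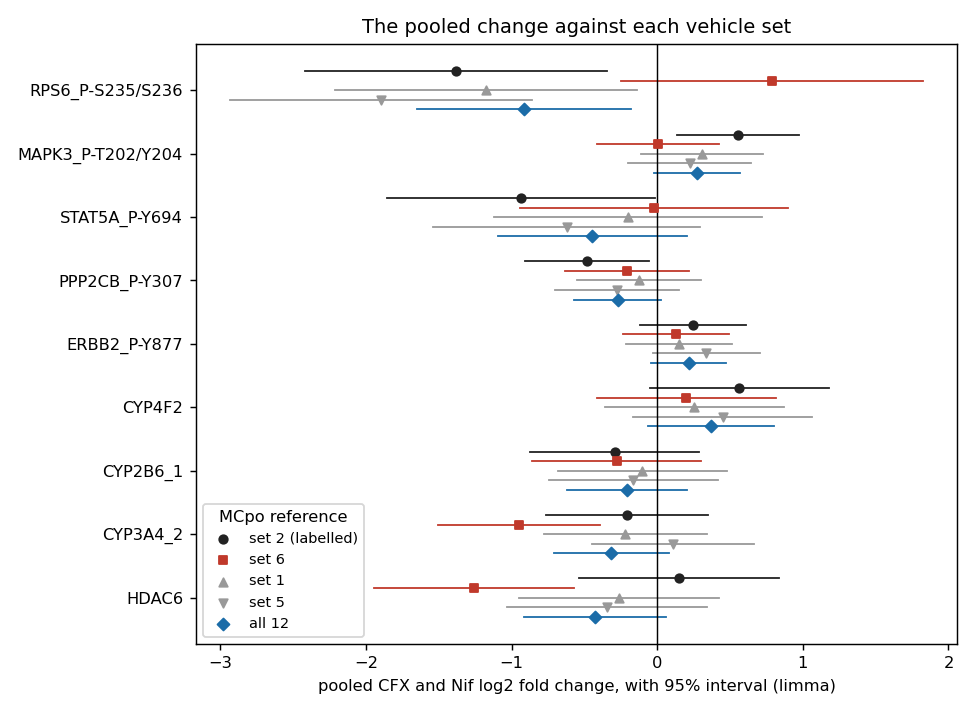
Pooled log2 difference of CFX and Nif for 9 analytes against MCpo sets 2, 6, 1 and 5 and all 12 MCpo, with 95% confidence intervals. RPS6_P-S235/S236 moves from -1.38 against set 2 to 0.79 against set 6, and MAPK3_P-T202/Y204 from 0.55 to 0.0051.

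The analytes closest to a call against set 6 were HDAC6 and CYP3A4_2, and both were singled out after their values were seen. HDAC6, a cytoplasmic deacetylase of tubulin, read 0.117, 0.0492 and 0.107 with CFX, 0.114, 0.133 and 0.0693 with Nif, and 0.398, 0.113 and 0.244 in set 6. Its pooled difference was -1.26 (adjusted p = 0.0941) and became -0.84 without the first animal of set 6 (adjusted p = 0.999), while against set 2, at 0.129, 0.0351 and 0.130, it was 0.15. CYP3A4_2 read 1.94, 2.60 and 1.89 in set 6, and all treated values except the first CFX animal lay below these. Its pooled difference was -0.95 (unadjusted p = 0.00129, adjusted p = 0.102) and -1.01 without the first set 6 animal (adjusted p = 0.473), against -0.32 from all 12 MCpo.

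The remaining lists held 0 analytes at an unadjusted p below 0.05 in the pooled comparison with set 2. Liver identity and beta-catenin gave 7 higher and 1 lower of 8 with a median of 0.11, from GSK3B (-0.0047), the kinase that marks beta-catenin for degradation, to GLUL (0.45), a beta-catenin target. GLUL read 0.673, 0.775 and 1.07 with CFX and 0.471, 0.878 and 0.870 with Nif, against 1.20 and 0.262 in the set 2 animals with a value, and its interval ran from -1.03 to 1.94. The direction of GLUL turned with the controls, to -0.36 against all 12 MCpo and -0.90 against set 6, where it was the lowest of the list. The list there gave 2 higher and 6 lower (median -0.15), and 3 and 5 (median -0.01) without the first set 6 animal. Beta-catenin itself, CTNNB1, had a pooled difference of 0.16, and of -0.22 against set 6. The stress kinases and JUN gave 7 higher and 2 lower of 9 with a median of 0.09, from -0.20 for MAPK14_P-T180/Y182, active p38, to 0.31 for MAPK8_P-T183/Y185, active JNK1. Against set 6 it was 1 and 8 (median -0.04), and 9 and 0 (median 0.12) without its first animal. JUN, the AP-1 transcription factor, read 0.221, 0.228 and 0.242 with CFX, 0.235, 0.229 and 0.316 with Nif and 0.257, 0.215 and 0.206 in set 2.

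Growth factor receptors and the IGF axis gave 10 higher and 2 lower of 12 with a median of 0.07, from SMAD2_P-S245/S250/S255 (-0.09) to MET (0.36), the receptor of hepatocyte growth factor. MET read 0.637, 1.16 and 1.06 with Nif, 0.821, 0.481 and 0.659 with CFX and 0.654, 0.503 and 0.645 in set 2. Nif animals 2 and 3 lay above all set 2 animals, with a difference of 0.63 against set 2 (unadjusted p = 0.0807) and 0.61 against all 12 MCpo (unadjusted p = 0.0341, no call). Against set 6 the list gave 6 and 6 (median -0.0050) and without its first animal 10 and 2 (median 0.25). The 4 antibodies of the AMPK and PKA list, against PRKAA1 in 2 forms, CREB1 and PRKACA_P-T197, gave 2 higher and 2 lower (median 0.02). The lowest was PRKAA1_P-T172, active AMPK, at -0.29 and the highest PRKACA_P-T197 at 0.15. Against set 6 all 4 were lower (median -0.23), and without its first animal 2 of 4 (median -0.04).

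Proteins of proliferation and cell death had small pooled differences from set 2. Of 15 cell cycle antibodies 9 were higher and 6 lower, with a median of 0.02 and a range from -0.20 for AURKA_P-T288, the active mitotic kinase Aurora A, to 0.22 for CCNE2, a cyclin of S phase entry. All 15 intervals lay within 2-fold. Against set 6 the list gave 3 higher and 12 lower (median -0.12), with 2 at an unadjusted p below 0.05, 14 intervals within 2-fold and CDKN1B_P-S10 the lowest at -0.52, and without its first animal 11 and 4 (median 0.14). The cell cycle inhibitor CDKN1B had pooled differences of 0.06 for the total protein, 0.07 for CDKN1B_P-T187 and -0.16 for CDKN1B_P-S10. The apoptosis list of 4 ran from AVEN at -0.08 to BCL2L1 at 0.21, both inhibitors of cell death, with a median of 0.02. Against set 6 all 4 were lower (median -0.21), and without its first animal 3 of 4 (median -0.01). BAX, which permeabilises mitochondria in apoptosis, read 0.543, 0.495 and 0.649 with CFX, 0.543, 0.575 and 0.671 with Nif and 0.547, 0.512 and 0.632 in set 2, a pooled difference of 0.04. STAT3, the acute-phase transcription factor, also had a pooled difference of 0.04.

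The 11 histone and chromatin antibodies gave 8 higher and 3 lower with a median of 0.04, from HIST1H3A_P-S28, the mitotic form of histone H3, at -0.10 to HIST1H2BB at 0.17. Against set 6 the split was 2 and 9 (median -0.20, 2 at an unadjusted p below 0.05), and without its first animal 6 and 5 (median 0.07). The 9 adhesion and cytoskeletal kinase antibodies gave 4 higher and 5 lower with a median of -0.03, from -0.30 for the cadherin CDH2 to 0.23 for the kinase PAK1_P-S141. Against set 6 it was 1 and 8 (median -0.13), and without its first animal 5 and 4 (median 0.03). The loading proteins ACTB and GAPDH were at -0.14 and -0.10 against set 2, at 0.06 and 0.24 against all 12 MCpo, at 0.75 and 0.47 against set 6, and at 0.75 and 1.09 without its first animal. Of all 158 analytes 105 were higher and 53 lower in the pool, 46 and 112 for CFX, and 130 and 28 for Nif. Against all 12 MCpo these splits were 64 and 94, 16 and 142, and 125 and 33. Against set 6 they were 28 and 130, 9 and 149, and 60 and 98, and without its first animal 108 and 50, 62 and 96, and 141 and 17. After each animal was centred on its median the splits against set 2 were 97 and 61, 80 and 78, and 107 and 51. The animals' median log2 RFI differed from set 2 by -0.06 for CFX (exact two-sided permutation test, p = 0.7, n = 3 and 3) and by 0.08 for Nif (p = 0.6, exact permutation), where 0.1 is the smallest p possible.

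CFX and Nif were then set against each other, at unequal doses of 250 and 3 mg/kg/day. CFX was lower for 150 of 158 analytes with a median difference of -0.19, and the median was negative in every list with a member. The animals' median log2 RFI differed by -0.14 (exact two-sided permutation test, p = 0.5, n = 3 and 3). After centring, the median difference was -0.05 with 113 of 158 lower in CFX. In the deposited log2 ratios 99 were lower. No analyte was called (0%, smallest adjusted p = 0.688), and 1 had an unadjusted p below 0.05 (0.633%), ERBB2_P-Y877 at -0.48 (-0.90 to -0.05, unadjusted p = 0.0280). All CFX values lay below all Nif values for 16 analytes (10.1%) and above for 0. Random arrangement of 3 against 3 animals separates a single analyte fully at a rate of 0.1, which is near this share. Besides ERBB2_P-Y877 the 16 included CYP2B6_1 at -0.57, CCNE2 and GAPDH.

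The replicate number was also used as a block, which pairs CFX and Nif animals of the same number. The study describes no such pairing, and the block was chosen because the deviations of same-numbered animals correlated in these same data. Its p-values therefore depend on a pairing that the design does not give. With the block, 4 analytes were called, all lower with CFX. Histone H3, HIST1H3A, differed by -0.97, -1.03 and -1.12 in the 3 pairs (mean -1.04, blocked adjusted p = 3.69e-05). It read 1.29, 1.68 and 2.60 with CFX and 2.52, 3.43 and 5.63 with Nif, against 4.05, 2.41 and 1.57 in set 2, so both compounds overlapped the controls. STAT5A_P-Y694 differed by -0.10, -1.78 and -0.41 (mean -0.76, blocked adjusted p = 0.00716).

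Both antibodies against ribosomal protein S6 were among the 4. RPS6_1 read 3.50, 11.9 and 19.3 with CFX and 14.7, 15.4 and 25.3 with Nif, with pair differences of -2.07, -0.37 and -0.39 (blocked adjusted p = 0.000196). RPS6_2 had pair differences of -1.35, -0.52 and -0.23 (blocked adjusted p = 0.0181). Pair 1 carried most of the S6 difference and pair 2 that of STAT5A_P. The blocked fit has 2 residual degrees of freedom and gave every analyte the same spread, so that analytes with a large spread pass it more easily. Without the block the same 6 animals gave 0 calls (smallest adjusted p = 0.621).

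PB, PBO and DHEA served as carcinogens with which the non-carcinogens could be set side by side on the same analytes. The test was of the difference between each carcinogen's change from its own labelled MCpo set and the pooled change of CFX and Nif from set 2. It called 3 analytes for PB (1.90%), 5 for PBO (3.16%) and 5 for DHEA (3.16%). Compared directly, without controls, it called 5 (3.16%), 12 (7.59%) and 13 (8.23%). PBO was dosed for the shorter time, and its difference holds the duration as well as the compound.

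Of the 14 P450 and POR antibodies, CYP2B6_1 and CYP3A4_2 were called higher with PB than with the non-carcinogens, and these, CYP1A2_1 and POR with PBO. CYP2B6_1 read 3.17, 3.20 and 3.81 with PB and 2.84, 3.53 and 3.07 with PBO, against 0.299 to 0.515 in the 6 CFX and Nif livers. The excess over the non-carcinogens was 3.21 ± 0.44 (SE) on the log2 scale for PB (adjusted p = 5.6e-07) and 3.21 for PBO. The other CYP2B6 antibodies gave no call in this test. CYP2B6_2 read 0.588, 0.472 and 0.565 with PB, overlapping the 0.474 to 0.598 of CFX and Nif. CYP2B6_3 read 116 to 220 with PB and 181 to 240 with PBO, above the 49.4 to 112 of CFX and Nif. Its PB difference was 0.91 (adjusted p = 0.385). CYP3A4_2 read 9.32, 11.2 and 10.1 with PB and 38.8, 40.0 and 35.6 with PBO, with no overlap with the 0.578 to 1.91 of CFX and Nif. Its excess was 2.47 for PB (adjusted p = 4.03e-05) and 5.43 for PBO (adjusted p = 1.14e-14). With the control sets that the log2 ratio table matches, the excess of CYP3A4_2 was 4.27 for PB and 5.86 for PBO. The other CYP3A4 antibody, CYP3A4_1, read 5.00, 5.70 and 7.43 with PB and 6.94, 9.41 and 3.60 with PBO, overlapping CFX and Nif, with differences of -0.59 and -0.20 and no call. CYP1A2_1 read 4.63, 7.64 and 8.01 with PBO, an excess of 2.38, and POR had an excess of 1.48 with PBO (adjusted p = 0.00167). The second antibody, CYP1A2_2, read 0.624, 0.515 and 0.495 with PBO, overlapping the 0.297 to 0.519 of CFX and Nif, with no call. CYP1A2_1 with PB differed by -0.79 (unadjusted p = 0.0266, adjusted p = 0.206). POR with PB read 20.3, 23.2 and 32.4, above the 11.7 to 16.9 of CFX and Nif. The POR difference for PB was 0.66 with the labelled sets (adjusted p = 0.243), with no call. It was called compared directly, at 0.79 (adjusted p = 0.0222), but not with the matched control sets, at 1.07 (adjusted p = 0.0734). CYP2E1_1 with PBO differed by -1.97 (adjusted p = 0.584) and, compared directly with CFX and Nif, by -2.23 (adjusted p = 0.0279). It read 0.582, 0.737 and 0.00448 with PBO, so the direct call rested on the lowest animal. The other PBO values lay inside the 0.434 to 0.819 of CFX and Nif. In the log2 ratios the CYP2E1_1 difference was 0.098, with no call. The second antibody, CYP2E1_2, was not lower, at 6.12, 10.3 and 8.49 with PBO against 3.39 to 8.44 with CFX and Nif. CCNE2 read 0.389, 0.417 and 0.631 with PB, above the 0.183 to 0.309 of CFX and Nif. Its difference of 0.71 was not called (adjusted p = 0.137) but was called compared directly, at 0.96, with the matched control sets, at 1.28, and in the log2 ratios, at 1.62. The log2 ratios named CCNE2 followed its RFI only weakly (rho 0.286 within groups over 45 treated animals).

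MAPK3_P-T202/Y204 was the third call for PB and was called for all 3 carcinogens. It read 2.38, 1.85 and 1.90 with PB, 2.00, 2.02 and 1.31 with PBO and 1.32, 1.44 and 1.48 with DHEA, all below the 2.99 to 5.26 of CFX and Nif. The difference was -1.43 for PB (adjusted p = 0.00263), -1.43 for PBO (adjusted p = 0.00167) and -1.65 for DHEA (adjusted p = 0.000743). With the control sets that the log2 ratio table matches instead of the labelled ones, it was -0.66 for PB (adjusted p = 0.939), -0.55 for PBO (adjusted p = 0.361) and -1.10 for DHEA (adjusted p = 0.0465). Calls for PB and PBO were thus lost with those sets. Compared directly with the CFX and Nif animals the differences were -0.88 for PB (adjusted p = 0.00474), -1.10 for PBO (adjusted p = 0.000117) and -1.40 for DHEA (adjusted p = 2.3e-06), all called. RPS6_P-S235/S236 with PB changed sign with the control sets. Its difference was 1.81 with the labelled sets (adjusted p = 0.206) and -3.04 with the matched sets (adjusted p = 0.0135, called). Compared directly, RPS6_P-S235/S236 with PB differed by -0.36 (adjusted p = 0.773).

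With DHEA, a steroid that acts as a peroxisome proliferator in rat liver, MAP2K1 read 355, 119 and 156, an excess of 2.30 (adjusted p = 0.00188) over the 38.3 to 50.2 of CFX and Nif. GSK3B_P-S9 differed by -1.10 (adjusted p = 0.0135), MAPK8 by -0.92 (adjusted p = 0.0276) and MAPK8_P-T183/Y185 by -1.04 (adjusted p = 0.0397). CYP2B6_1 with DHEA read 0.307, 0.401 and 0.628, overlapping CFX and Nif. CYP3A4_2 with DHEA read 3.49, 1.66 and 3.42, with 2 of 3 animals above all CFX and Nif animals. Its excess was 1.29 (adjusted p = 0.102) with the labelled sets, with no call, but 1.30 compared directly (adjusted p = 0.000973), 2.03 with the matched sets and 2.21 in the log2 ratios, each called. The count of 5 for DHEA fell to 3 without CFX animal 3 and to 2 without MCpo animal 11. Calls shared by the labelled, matched, direct and log2 ratio versions were CYP2B6_1 and CYP3A4_2 for PB, these and CYP1A2_1 for PBO, and MAP2K1 for DHEA. The log2 ratios named MAP2K1 followed its RFI only weakly (rho 0.351 within groups over 45 treated animals) and matched another analyte better. For CYP2B6_1, CYP1A2_1 and CYP3A4_2 this rho was 0.780, 0.806 and 0.808.

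**Figure D5:**
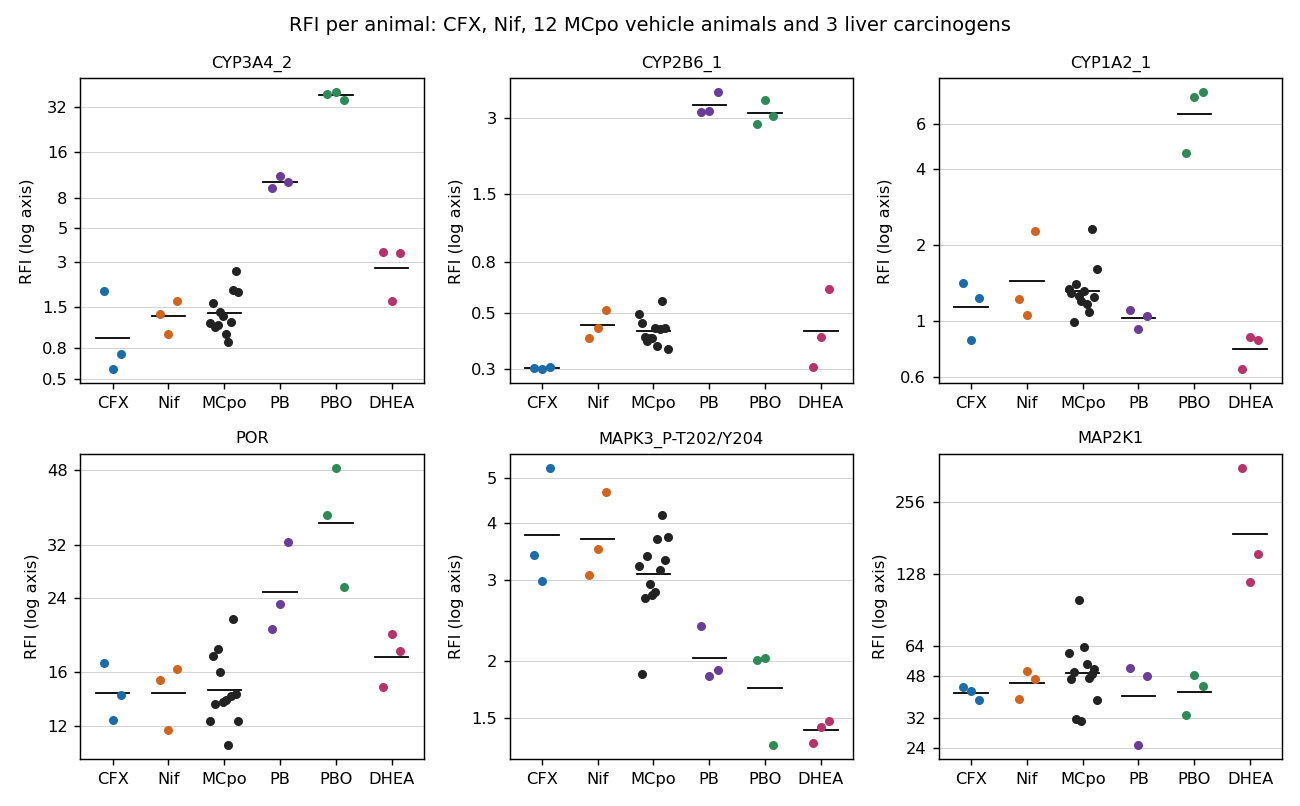
RFI on a log axis of each animal for CYP3A4_2, CYP2B6_1, CYP1A2_1, POR, MAPK3_P-T202/Y204 and MAP2K1 in CFX, Nif, the 12 MCpo, PB, PBO and DHEA (points are animals, lines are geometric means). CYP2B6_1 sits at 2.84 to 3.81 with PB and PBO and at 0.299 to 0.515 with CFX and Nif.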

How the data were processed

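Reverse-phase protein arrays of liver lysates were read in 63 rats. The authors subtracted local background from each spot, normalised over the array, took a weighted mean of replicate spots and deposited a relative fluorescence intensity (RFI) per animal and analyte. They also deposited log2 ratios, for which blank-corrected signals were divided by a control group median and missing values imputed, which served as an alternative and whose names matched the RFI best for 75 of 158 analytes. Groups came from the labels. RFI at or below 0 was set missing and other values were log2-transformed. Group means of 21 groups were fitted in limma 3.58.1 (R 4.3.3) over all 63 animals, with p-values adjusted by the Benjamini-Hochberg method over 158 analytes. The number of animals limits precision. Animals, analyte lists and named analytes were chosen with earlier results of these data known. Named were analytes with an unadjusted p below 0.05, P450 and other reference analytes, and the extremes of each list. Of the 158 analytes, 146 fell in a list. Deviations of same-numbered CFX and Nif animals from their group means correlated at 0.455, 0.279 and 0.481, above the 0.1 required for pairing; the numbers come from the labels. Alternatives were other control sets, centring on the animal median, a pseudocount of 0.1, a floor for missing values, a filter on dim analytes, fewer animals in the fit, a variance trend, and each animal left out. The fit was tested on simulated data. No values were left out as outliers. The values of 1 analyte list are not reported here.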

Additional observations from a re-analysis of the deposited data

How the results depend on the processing

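Calls for CFX, Nif and the pool against MCpo stayed at 0 under 21, 21 and 24 alternatives, with 0 to 13, 1 to 10 and 1 to 10 analytes at an unadjusted p below 0.05, and at 0 in every case with an animal left out. For CFX against Nif the replicate block, within pairs, gave 4 calls, and no other alternative gave any. In the tests against PB, PBO and DHEA only CFX, Nif and set 2 animals were left out, not carcinogen animals or their controls. The difference from PB then kept 3 calls and that from PBO 5. That from DHEA gave 2 to 6 (2 without MCpo animal 11, 3 without CFX animal 3). Compared directly without controls these counts were 5, 12 and 13.

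Values with an unadjusted p below 0.05 changed sign as follows. For Nif, MAPK3_P-T202/Y204 was -0.0095 against set 6, and RPS6_P-S235/S236 was 0.47 against set 6, 1.03 without its first animal, 0.61 after centring and 0.68 in the log2 ratios. For the pool, RPS6_P-S235/S236 was 0.79, 1.34, 1.00 and 1.08 in the same order, PPP2CB_P-Y307 was 0.0029 centred against set 6 and 0.042 in the log2 ratios, and STAT5A_P-Y694 was 0.11 against set 6 without its first animal, 0.19 centred and 0.050 in the log2 ratios. The cause was not tested. Centred fits against set 6 or all 12 MCpo, matched control sets and fits without the first set 6 animal were chosen after seeing the data.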
